A study of Mus musculus with 3 samples.

Results

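Ribosomal protein genes were followed on 3 two-colour arrays that compared mouse spleen RNA with a universal mouse reference RNA. A gene belonged to the set when its symbol in the probe annotation matched the ribosomal protein pattern (Rpl or Rps followed by a digit, Rplp, or Rpsa), with S6 kinases and pseudogene symbols left out. The annotation held 65 such symbols on 241 probes, and 62 of them had at least 1 probe with a nonzero value on all 3 arrays, out of 6077 genes measured in this way. Of the 62, 40 encode proteins of the large subunit or their paralogs and 21 those of the small subunit or their paralogs. The other one, Rps19bp1, encodes a binding partner of Rps19 and shares only the start of the symbol.

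On every array the spleen cRNA was labelled red with Cy5, and the cRNA of the reference, a commercial pool of RNA from cultured mouse cells, was labelled green with Cy3. Both RNAs were bought, and nothing is known here of the animals' strain, age or sex. The same product is named for each RNA on every array, so a p-value covers the spread between the arrays alone, and that spread may be technical. The table holds 1 log ratio per probe and array, with log base and numerator not stated. Positive values are read as likely higher in spleen, because red over green is the common convention and because of marker genes: 3 of 3 measured B cell markers, 3 of 4 T cell markers and 3 of 3 erythroid markers were called positive, and 3 of 3 fibroblast markers negative. Of 5 exocrine pancreas markers, 4 were also called positive, with a list median of 3.40, and the part of pancreas RNA in the values below was not tested. The sample titles name the reference first, which could mean the opposite order, and with no labelled swap of the dyes, dye effects and RNA differences cannot be told apart. Fewer cells of a type and less RNA per cell cannot be told apart either.

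The cytosolic ribosome joins a small subunit, which holds the mRNA and reads its codons, to a large subunit, which joins amino acids and lets the new peptide out through a tunnel. Their proteins are made in step with ribosomal RNA, and their mRNAs are among the most abundant in growing cells. Many of these mRNAs begin with an uninterrupted stretch of pyrimidines, the 5′ TOP motif, through which growth signals control their translation. The proteins have many processed pseudogene copies in mammalian genomes, so a probe of one gene can also pick up closely related sequence, and single members are uncertain to that extent.

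RefSeq promoter windows of assembly GRCm38.p6, from 250 bases before to 50 bases after the first listed start, were matched for 52 of the 61 genes of the subunits. Stretches of 60 bases, 40 before and 20 after the start, are shown for the highest or lowest members with a window, for paralog pairs and for a long pyrimidine run. Capitals mark the longest run of at least 8 C or T on the coding strand that reaches within 20 bases of the start (the first of 2 equally long runs in Rps27l), and a stretch with no capitals has no such run.
Rpl10a, chr17:28328431-28328490, plus strand: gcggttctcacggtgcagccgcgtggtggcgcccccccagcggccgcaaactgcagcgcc
Rpl27a, chr7:109519155-109519214, plus strand: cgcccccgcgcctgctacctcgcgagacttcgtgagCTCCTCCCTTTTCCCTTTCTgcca
Rpl22, chr4:152325686-152325745, plus strand: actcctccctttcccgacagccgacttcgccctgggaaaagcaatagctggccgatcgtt
Rps27, chr3:90213629-90213688, minus strand: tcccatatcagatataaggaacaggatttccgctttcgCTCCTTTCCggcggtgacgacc
Rps25, chr9:44407674-44407733, plus strand: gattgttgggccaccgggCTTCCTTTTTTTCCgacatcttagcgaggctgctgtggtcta
Rpl39l, chr16:10170188-10170247, plus strand: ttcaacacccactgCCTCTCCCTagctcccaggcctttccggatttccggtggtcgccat
Rpl39, chrX:37085203-37085262, minus strand: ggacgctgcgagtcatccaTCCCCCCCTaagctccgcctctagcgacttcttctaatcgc
Rps27l, chr9:66946046-66946105, plus strand: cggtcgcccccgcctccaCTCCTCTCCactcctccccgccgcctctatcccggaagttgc
Such a run was present in 25 of the 52 members (48.1%) and in 20.8% of all 27025 windows. The letters CCGGAAG on either strand, a core of ETS factor sites, were in 22 members (42.3%), against 9.12% of all windows. The letters AANATGG on either strand, a core of YY1 sites, were in 14 members (26.9%), against 16.3% of all windows. CCGGAAG and AANATGG were searched over the whole window, and matches of different motifs may overlap. The 25 members with a run included 4 called positive and 12 called negative by the test described next, with a median log ratio of -0.16, while the 27 without one included 7 and 8, with a median of 0.04. The 22 members with CCGGAAG included 2 called positive and 12 called negative, with a median log ratio of -0.18, while the 30 without it included 9 and 8, with a median of 0.03. The 14 members with AANATGG included 5 called positive and 5 called negative, with a median of -0.05, while the 38 without it included 6 and 15, with a median of -0.10. By the same test 33.2% of all genes were called positive and 37.1% negative. A match is a string of letters and no measured site, and these counts and medians carry no test.

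Most ribosomal protein genes had log ratios close to 0. A gene was called when limma's moderated test of its mean over the 3 arrays against 0 had a Benjamini-Hochberg adjusted p under 0.05 over all 6077 genes. By this rule 38 of the 62 members were called, where 70.3% of all genes were. Of the members 13 (21.0%) were positive, where 33.2% of all genes were, and 25 (40.3%) were negative, where 37.1% of all genes were. The other 24 were not called. The share of negative calls was thus near that of all genes. The interquartile range of the mean log ratios was 0.47 for the members, from -0.33 to 0.14, and 0.72 for all genes, from -0.39 to 0.34. A mean beyond 1 in size was found for 1 member (1.61%) and for 14.2% of all genes, and a mean beyond 0.5 for 13 members (21.0%) and 37.4% of all genes. Gene means average probes, and 46 of the 62 members had at least 2 measured probes, where 1491 of all 6077 genes did. The part of this averaging in the narrower range of the members was not tested. For single probes the median size of the mean was 0.27 for members and 0.37 for all measured probes. Over single probes, 39 of the 189 measured ones of members were called positive and 71 negative, where 68.3% of all probes were called in either direction. The spread of single probes between arrays was much the same. The median SD over the arrays was 0.120 for the 189 measured probes of members and 0.119 for all 11086 measured probes. For gene values it was lower in the members, at 0.082 against 0.110 for all genes, and the called shares depend on this spread too. Reading the values as base 2, the test against a 1.5-fold change kept 6 members (Rpl10a, Rps27, Rpl39l, Rpl22, Rpl37 and Rps25), 9.68% of the members, where 19.9% of all genes passed it.

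**Figure D1:**
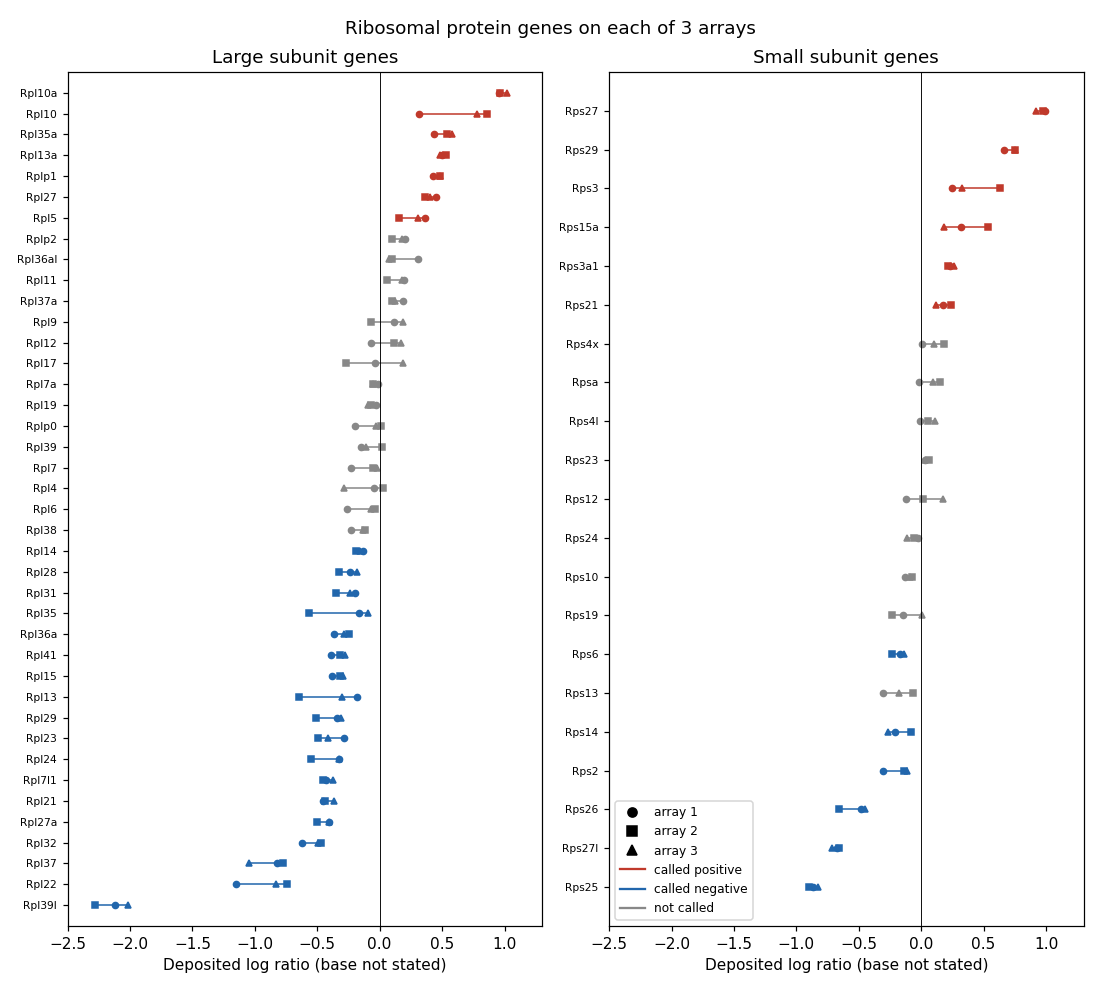
Deposited log ratio of each measured ribosomal protein gene (rows) on each of 3 arrays (symbols), with lines from the lowest to the highest array, for the large subunit (left) and the small subunit (right). Red and blue mark genes called positive and negative by limma and grey those not called, and Rpl39l lies apart at -2.28 to -2.01.

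The medians of both subunits lay within 0.2 of 0, with the large subunit below the small one on every array. The median log ratio of the 40 large subunit genes was -0.17, -0.10 and -0.10 on arrays 1 to 3, and that of the 21 small subunit genes was -0.02, 0.02 and 0.03. The difference, large minus small, was -0.15, -0.11 and -0.13, with a mean of -0.13 ± 0.019 (SD, n = 3 arrays). All measured genes had medians of -0.03 on each array, so the large subunit lay below that level and the small subunit slightly above it. Without the paralogs the difference was -0.14, -0.09 and -0.13. Genes are not replicates of a subunit, so no p is given, and the difference is small beside the spread within each subunit, whose interquartile range was 0.52 for the large and 0.36 for the small subunit. Of the 40 large subunit genes 7 were called positive (17.5%) and 18 negative (45%). Of the 21 small subunit genes 6 were called positive and 6 negative (28.6% each). Over all genes 33.2% were called positive and 37.1% negative. Whether these counts differ between the subunits was not tested.

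**Figure D2:**
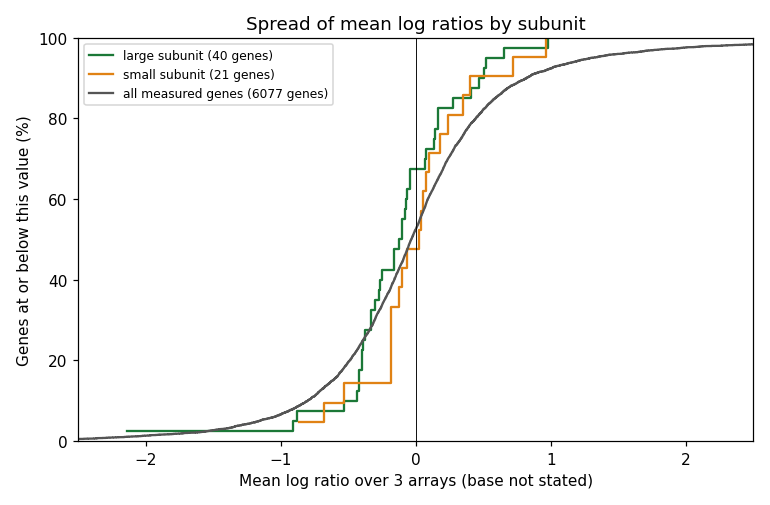
Cumulative share of genes (percent) at or below each mean log ratio over 3 arrays, for large subunit genes (40), small subunit genes (21) and all measured genes (6077), with the axis ending at 2.5 on either side. Both subunit curves rise within a narrower range than that of all genes, and the large subunit curve lies to the left of the small subunit curve around the median.

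Among large subunit genes, Rpl10a was the highest. It encodes the protein of the L1 stalk, which moves spent tRNA out of the ribosome, and its log ratio was 0.95, 0.96 and 1.02 on arrays 1 to 3. The mean of 0.98 ± 0.035 (SD, n = 3; limma adjusted p = 9.63e-06) would be a 1.97-fold ratio in base 2 and a 2.66-fold ratio in natural logs. Its 4 probes all belong to 1 sequence entry and had means of 0.84 to 1.04, so the value rests on a single sequence. Rpl35a had 0.43, 0.54 and 0.58 (mean 0.52, adjusted p = 0.000321 in the same fit). Its 4 repeated probes of 1 entry averaged 0.62, while the only other probe measured had a mean of 0.10 and was not called. Rpl13a, known in human myeloid cells as a part of an interferon-induced translational silencing complex, had 0.50, 0.53 and 0.48 (mean 0.50, limma adjusted p = 0.000267). It rests on 1 probe. The gene values of all 3 were above 0 on each array. Rpl10, which joins the large subunit late in its assembly, was less even, at 0.31, 0.86 and 0.78 (mean 0.65, limma adjusted p = 0.00141). That mean comes from 1 of its 3 probes. The other two had no value on array 2 and were negative on arrays 1 and 3, between -0.59 and -0.17. With probes measured on at least 2 arrays the mean of Rpl10 was 0.22 and was no longer called (adjusted p = 0.342), and with 0 kept as a value it was 0.03. Its call also ended without moderation of the variance (adjusted p = 0.101), and subtracting a running median of neighbouring probe numbers, 5 to each side, left 0.37.

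The P stalk and the proteins that hold the 5S RNA lay around or above 0. The stalk recruits elongation factors, and of its 3 genes Rplp1 was called positive at 0.43, 0.49 and 0.48 (mean 0.47, limma adjusted p = 0.000407). Rplp2 had 0.20, 0.10 and 0.18 and Rplp0, the base of the stalk, -0.19, 0.01 and -0.03, neither past the test (adjusted p = 0.0536 and 0.401). Rplp2 was called positive under 5 other settings, with means of 0.078 to 0.19, and Rplp0 negative with the running median subtracted (-0.093). The gene values of these stalk partners, which form 1 complex in the ribosome, were unequal on all 3 arrays. Rplp1 itself had probes apart from each other, with means of 0.71 and 0.22, and its mean was 0.27 after that subtraction, still called. Its lower probe had 0.26, 0.11 and 0.28, close to the higher of the 2 measured Rplp2 probes at 0.26, 0.12 and 0.32. The lower Rplp2 probe had a mean of 0.09. Rpl5 and Rpl11 carry the 5S RNA and also bind Mdm2, the regulator of p53. Rpl5 was called positive at 0.36, 0.15 and 0.31 (mean 0.27, limma adjusted p = 0.01), and Rpl11 had 0.19, 0.06 and 0.18 (adjusted p = 0.0863). Rpl11 was called positive with each array centred on its median (0.17) and with the running median over 5 or 20 probe numbers to each side subtracted (0.11 and 0.14). The call of Rpl5 rests on 1 probe and ended without array 1 (adjusted p = 0.0745), without moderation (0.0834), with 0 kept (0.0579) and after subtraction of the running median, which left a mean of 0.0073.

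Of 6 measured genes of the peptide exit tunnel and its rim, 2 were called negative, a share near the 37.1% of all genes. Rpl31 was called negative at -0.20, -0.35 and -0.24 (mean -0.26, limma adjusted p = 0.00942) and Rpl35 at -0.16, -0.56 and -0.10 (mean -0.27, adjusted p = 0.0398). Array 2 stood apart for Rpl35, whose mean without it was -0.13 and not called (adjusted p = 0.145). Its call ended without array 1 too (adjusted p = 0.0673), as it did with each array centred on its median (0.0582) and under further settings. The call of Rpl31 ended without moderation (adjusted p = 0.0604) and with the running median over 5 or 20 probe numbers to each side subtracted (0.0900 and 0.268). The tunnel wall proteins Rpl4 and Rpl17 and the tunnel genes Rpl19 and Rpl39 had means of -0.10, -0.04, -0.06 and -0.08 and were not called. Each was called under some other setting. Rpl4 was called positive, at 0.12 and 0.25, after subtraction of the running median over 5 and 20 probe numbers. Rpl19 was called negative after the same subtractions (-0.13 and -0.18) and positive with the probe of the smallest SD (0.26). Rpl17 was called negative with the running median over 5 probe numbers subtracted (-0.76), and Rpl39 with probes measured on at least 2 arrays (-0.19).

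The lowest large subunit genes apart from a paralog were Rpl22 and Rpl37. Rpl22, which in mice is needed for the development of alpha-beta T cells, had -1.15, -0.74 and -0.83 (mean -0.91 ± 0.22, SD, n = 3; limma adjusted p = 9.22e-05). It was negative on each array, though only 1 of its 2 probes was measured, and the mean was -0.45 with 0 kept and -0.46 with the running median over 5 probe numbers subtracted, still called. Rpl37, another Mdm2 binding protein, had -0.83, -0.77 and -1.04 (mean -0.88 ± 0.14, SD, n = 3, limma adjusted p = 4.4e-05) from 2 of 6 probes. None of its other 4 probes was measured on all arrays, and their nonzero values lay between -0.87 and -0.34, also negative. With 0 kept its call ended (-0.47, adjusted p = 0.0705).

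Rpl32, Rpl27a and Rpl21 were next, with means of -0.53, -0.44 and -0.42, and Rpl15 and Rpl41 had means of -0.33 each. For Rpl32 the 4 repeated probes of 1 entry averaged -0.62, and the other measured probe had a mean of -0.17 and was not called. Rpl15, whose human counterpart is mutated in some cases of Diamond-Blackfan anaemia, a red cell aplasia, was even across probes. Its gene value was -0.38, -0.32 and -0.29, and all 6 of its measured entries were called negative, with means of -0.39 to -0.28. Rpl41 encodes the shortest ribosomal protein and had 10 measured probes, each of a different entry, with means of -0.60 to -0.04. Of these, 8 were called negative by limma and the other two were not called.

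In the small subunit, Rps27 and Rps29 were the highest. Both encode small zinc-binding proteins, and each rests on 1 probe. Rps27 had 0.99, 0.97 and 0.92 (mean 0.96 ± 0.040, SD, n = 3; limma adjusted p = 1.08e-05). Rps29 had 0.66, 0.75 and 0.75 (mean 0.72 ± 0.052, SD, n = 3; limma adjusted p = 4.74e-05). The array values of either gene differed by under 0.1, far less than their distance from 0. At the other end Rps25, which in yeast and human cells is needed for initiation at some viral internal entry sites, had -0.87, -0.90 and -0.83 (mean -0.86 ± 0.036, SD, n = 3; limma adjusted p = 1.79e-05). That value comes from 4 probes of 1 entry. A further Rps25 probe, of another entry, had 0.17, -0.10 and 0 and so fell outside the rule.

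Small subunit genes at the path of the mRNA went different ways. Rps3, at the entry of the mRNA channel, was called positive at 0.25, 0.63 and 0.33 (mean 0.40, limma adjusted p = 0.00482), a call that ended without moderation (adjusted p = 0.115) and with 0 kept (0.115), while the mean was 0.61 with the probe of the smallest SD and 0.68 with the running median over 5 probe numbers subtracted. Rps26, at the mRNA exit, was called negative at -0.48, -0.65 and -0.45 (mean -0.53, limma adjusted p = 0.00039), and its mean was -0.33 with the probe of the smallest SD. On each array the gene value of Rps3 was above that of Rps26, though single probes overlapped on array 3. There 1 Rps3 probe was at -0.20, below an Rps26 probe at -0.12. That Rps3 probe had 0.01 and 0.69 on arrays 1 and 2 and was not called. Rps2, next to Rps3 at the entry site, had a mean of -0.19 (limma adjusted p = 0.0448), and this call ended without any 1 of the 3 arrays (adjusted p = 0.0553 to 0.254) and turned to 0.02 with the running median over 5 probe numbers subtracted. Rps23, at the decoding site, had 0.03, 0.06 and 0.03. Rpsa, mutated in humans born without a spleen, had -0.02, 0.15 and 0.10, and neither was called (adjusted p = 0.57 and 0.335). With the running median over 20 probe numbers subtracted both were called positive (0.16 and 0.19), as was Rps23 with the probe of the smallest SD (0.17) and Rpsa with 0 kept (0.094).

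Other small subunit calls were weak. Rps15a (mean 0.35), Rps3a1 (0.24) and Rps21 (0.18) were called positive, and Rps6, the protein phosphorylated by S6 kinases (-0.18), and Rps14 (-0.18) were called negative, with limma adjusted p from 0.00722 to 0.0435. Each of these 5 calls ended under several other settings. Rps15a turned to -0.17 with the running median over 5 probe numbers subtracted, Rps14 to 0.06 with that over 20, and Rps6 and Rps21 to 0.10 and -0.01 when only the probe with the smallest SD was used. Leaving out 1 array ended the calls of Rps21 and Rps6 whichever array it was, and those of Rps3a1 and Rps14 without array 1 or array 3.

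A list was made of 12 genes whose human counterparts are mutated in Diamond-Blackfan anaemia, and it does not hold all such genes. Of the 12, 9 were measured, of which 3 were called positive and 2 negative. The positive share of this list is near the 33.2% of all genes, and 37.1% of all genes were called negative. These shares depend on which genes were listed. Rps29, Rpl35a and Rpl5 were called positive, Rps26 and Rpl15 negative, and Rps19, the gene most often affected, was not called at -0.14, -0.24 and 0.01 (adjusted p = 0.165). Rpl11, Rps10 and Rps24 were not called either, with means of 0.14, -0.10 and -0.06, though Rps10 was called negative with 0 kept (-0.065) and with the running median over 5 probe numbers subtracted (-0.15). The median of the 9 was -0.06, beside -0.03 over all genes, while 3 of 3 erythroid markers were called positive with a median of 2.64.

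Paralogs of ribosomal protein genes included the lowest member of the set. Rpl39l, a paralog of the tunnel gene Rpl39 that in mice is most abundant in developing sperm, had -2.12, -2.28 and -2.01 (mean -2.14 ± 0.14, SD, n = 3; limma adjusted p = 5.73e-07), a 4.41-fold ratio in base 2 and 8.50-fold in natural logs. That value comes from the only listed probe of Rpl39l. Rpl39 itself had -0.15, 0.02 and -0.11. The paralog was thus lower than its parent gene on every array, by 2.06 ± 0.21 (SD, n = 3). Rps27l, a target of p53, had -0.67, -0.66 and -0.71 (mean -0.68, limma adjusted p = 5.58e-05) and lay on the other side of 0 from Rps27. Its difference, Rps27l minus Rps27, was -1.64 ± 0.019 (SD, n = 3), and its 3 probes, of different entries, had means of -0.74 to -0.60. Rpl36al went the other way, at 0.31, 0.10 and 0.07 (adjusted p = 0.0833, called at 0.27 with the running median over 5 probe numbers subtracted), against -0.37, -0.24 and -0.29 for Rpl36a. Rpl7l1 was called negative (mean -0.42, -0.12 with the running median over 5 probe numbers subtracted), while Rpl7 had a mean of -0.10. Rps4l was near its relative Rps4x, with means of 0.05 and 0.10, although Rps4l was called negative, at -0.27 and -0.16, with the running median over 5 and 20 probe numbers subtracted. Rpl36al, Rpl36a, Rps4l and Rpl7 also rest on 1 measured probe each. These differences are given with no test.

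**Figure D3:**
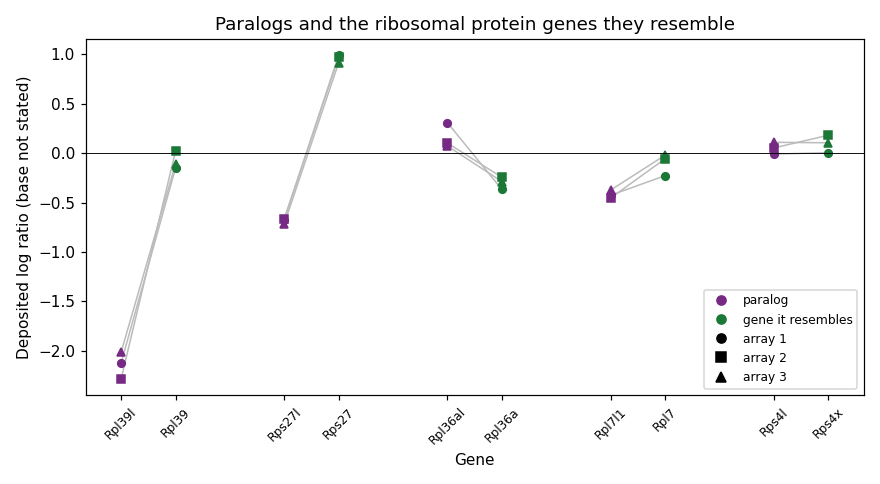
Deposited log ratio (base not stated) of 5 paralogs (purple) and of the ribosomal protein genes they resemble (green) on each of 3 arrays (symbols), joined within an array. Rpl39l and Rps27l lie below their relatives on every array, by means of 2.06 and 1.64, while Rps4l and Rps4x lie close together.

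Probes of the same gene often disagreed. Of the 62 members, 46 had at least 2 measured probes, and in 4 of them (8.70%) probes were called in opposite directions, where 9.32% of all 1491 such genes were. These were Rpl13, Rpl19, Rps23 and Rps24. A second test compared each probe with the mean of the other probes of its gene on the same array, and in 20 of the 46 members (43.5%) at least 1 probe stood apart (limma adjusted p under 0.05), where 51.2% of all such genes did. Both shares were near or below those of all genes. Because 1 or 2 probes can make a gene count, both shares depend on its number of probes, which was not matched here. Without array 3 the count of members with a probe apart was 8 (17.4%), where 32% of all such genes had one, and without array 1 it was 12 (26.1%), where 36% did. With the probes of an entry averaged first, 35 members were called (70.2% of all genes), 3 of 43 had entries called in opposite directions (6.98%, against 9.4% of all such genes) and 21 of 43 had an entry apart (48.8%, against 52.7%).

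Probes of 1 sequence entry were compared separately from different entries. Some members carry 1 entry on several probes, usually 4, beside other entries on 1 probe each. Within an entry the means of the repeated probes spanned a median of 0.25 over 13 entries of members, and between the entries of a gene the means spanned a median of 0.30 over 43 members, with a highest value of 1.12. In all genes these medians were 0.21 over 182 entries and 0.35 over 1383 genes. The widest range was that of Rpl13, whose 4 repeated probes had means of -0.74 to -0.48 and whose other probe had 0.44, 0.63 and 0.50, each called. On array 2 the repeated Rpl13 probes lay between -1.33 and -0.75, lower than on array 1, where they lay between -0.38 and -0.28. The gene mean was -0.38 (limma adjusted p = 0.0103). It was -0.24 without array 2, -0.04 and not called (adjusted p = 0.643) with the probes of an entry averaged first, and 0.52 with the probe of the smallest SD.

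Rpl27 showed the same layout with the signs turned. Its 4 repeated probes had means of 0.45 to 1.04, all called positive, whereas its 3 single probes had -0.08, -0.04 and -0.02, none called. Averaging each entry first gave 0.15, no longer called (adjusted p = 0.0618), in place of 0.41 (limma adjusted p = 0.000864). Rpl27a had 2 repeated probes at -0.94 and -0.86 and 3 single ones at -0.27 to 0.05. Its gene mean was -0.44 (limma adjusted p = 0.000639) and -0.17 with the probe of the smallest SD. Over the 10 members with both kinds of entry, the repeated entry lay farther from 0 than the mean of the single ones in 8, with a median size of 0.52 for the repeated and 0.17 for the single entries, and the signs were opposite in 5. No test was made of this pattern, which was noticed after the data were seen. It bears on Rpl10a, Rps25 and Rpl7a, whose values rest on a repeated entry alone. Rps24, with 8 measured probes, shows both levels: 2 of its 4 repeated probes were called negative (-0.43 and -0.40), and 2 of its 4 single ones positive (0.27 and 0.31), and the gene mean was -0.06.

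**Figure D4:**
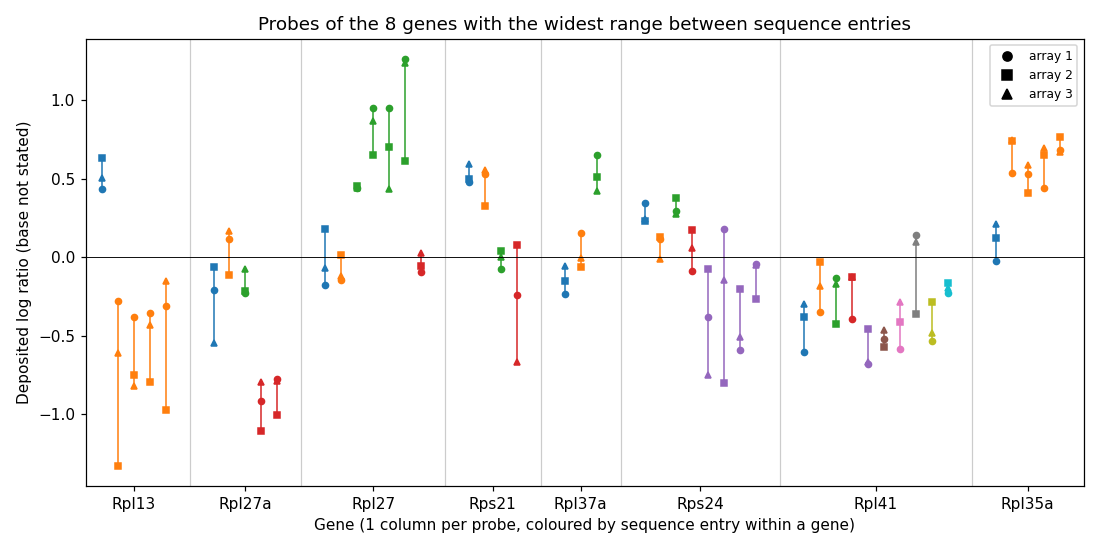
Deposited log ratio (base not stated) of each measured probe (columns) on 3 arrays (symbols) for the 8 members with the widest range between sequence entries, with colours marking entries within a gene. In Rpl13, Rpl27 and Rpl27a the means of the repeated probes of 1 entry do not overlap those of the other entries, though in Rpl27 they themselves run from 0.45 to 1.04.

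Genes that share the 5′ TOP motif without encoding ribosomal proteins were called negative more than positive. Of 22 listed, 11 were measured, 7 called negative and 1 positive, with a median of -0.34. Vim, an intermediate filament gene of mesenchymal cells, had -1.32, -1.34 and -1.19, and the initiation factor gene Eif4b had -0.88, -0.81 and -0.77, while Eif3f was positive at 0.39, 0.36 and 0.50 (mean 0.42, and 0.23 with the running median over 20 probe numbers subtracted). Eif3e had a mean of -0.79, which ended as a call (-0.03, adjusted p = 0.421) with the running median over 5 probe numbers subtracted. Fau, which encodes a small subunit protein fused to a ubiquitin-like part, had 0.21, -0.26 and 0.04 and was not called (adjusted p = 0.948). Among ribosome assembly factors, 29 of the 65 listed were measured. Of these 16 were called negative and 4 positive, and the median was -0.25. Named members were Utp20 (-0.77), Wdr43 (-0.74) and Nolc1 (-0.74), against Mdn1, an ATPase of large subunit assembly, at 1.32, 0.97 and 1.32, Dkc1 (0.45, and 0.85 with the running median over 5 probe numbers subtracted) and Sbds (0.25, not called without array 1 or array 2). Over all genes 37.1% were called negative and the median was -0.03, and no set test was made.

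Of the 65 symbols, 3 had no probe with a value on all arrays. Rps18 and Rps23rg1 were listed at 0 throughout, and Rps20 had 0, -0.66 and -0.65. A value of 0 is read as no measurement, because 3115 probes held an exact 0 on all 3 arrays. This reading was not tested. Rps18, which every cell uses, cannot decide it, since equal amounts in both RNAs would also give a log ratio near 0. All 3 arrays held 0 for 21 of the 241 member probes (8.71%) and for 19.1% of all 16273 probes. A further 31 member probes were at 0 on 1 or 2 arrays and entered no gene mean. Annotation to several genes kept 9 more probes with a ribosomal protein symbol out of the set.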

How the data were processed

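The authors deposited 1 table with a signed log ratio for each of 16273 probes on each of 3 two-colour arrays of spleen RNA against a reference RNA. How the authors scanned, corrected and normalized the arrays, and which log base they took, is not given in the sources used here. Values were used as deposited. The labels' protocols give a single round of amplification. Probes with an exact 0 on any array were treated as not measured, leaving 11086. GEO's platform annotation supplied symbols: 12336 probes had 1 symbol, 61 several and 3876 none. Probes of a gene were averaged. limma 3.58.1 in R 4.3.3 fitted an intercept over all genes, all probes, or all differences between a probe and the other probes of its gene (two-sided, Benjamini-Hochberg adjusted p under 0.05). Depth has no counterpart here, and the number of arrays limits the precision.

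Genes named with values on each array were the up to 6 highest and 6 lowest called members of each subunit, members with probes called in opposite directions, members of 6 ribosomal lists, and the up to 3 highest and lowest called genes of the TOP and assembly lists with Fau. Any member could also be named, and Rpl41, Rpl36a and Rps20 were given with values on each array or probe after these were seen. Members, lists and tests were chosen with earlier results of these data known.

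Tested on simulated data with the spread of the 6077 genes, the gene fit recovered 1, 27, 45 and 49 of 50 genes shifted by 0.25, 0.5, 1 and 2, with 3 false calls. The probe comparison recovered 183 of 200 genes with a probe shifted by 1, among 1491 genes, with 9 false calls. In the gene simulation 5877 genes were not shifted, whereas 70.3% of all genes were called in the data. In the probe simulation 1291 were not shifted, whereas 51.2% had a probe apart in the data. The adjusted p depends on these shares, so the recoveries and false calls do not carry over to the real fits. Plots used Python 3.11.15 and matplotlib 3.10.9.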

Additional observations from a re-analysis of the deposited data

How the results depend on the processing

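Besides the test against a 1.5-fold change, 17 other settings were tried, of which averaging the probes of an entry first was chosen after seeing the data. Leaving paralogs out changes no gene's value. Through the other 16 of these, 17 of the 38 called members kept call and direction, 6 positive and 11 negative. No paired analysis was possible because the arrays form 1 group.

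Without moderation of the variance 24 members were called (8 positive, 16 negative), 38.7% of members and 45.6% of all genes. Probes were called in opposite directions in 0 members (2.88% of all genes with several probes), 2 had a probe apart (4.35%, against 8.79%), and 9 of the 29 measured assembly factors were called. Against a 1.5-fold change 6 were called (2 positive, 4 negative), with 0 and 0 for the probe counts (0.469% and 8.52% of all such genes). Of the measured list genes, 2 of 11 TOP genes and 1 of 29 assembly factors passed, where 19.9% of all genes did. At an adjusted p under 0.01 the probe counts were 2 opposite and 7 apart (4.35% and 15.2%, against 5.03% and 28.4% of all such genes), and with 0 kept 0 were opposite (2.76% of all). Subtracting a running median over 5 probe numbers, which takes in the probe's own value, gave 38 members with a probe apart (82.6%, against 68.6% of all such genes), a large minus small difference of -0.075 and a member median of -0.026, in place of -0.13 and -0.099. Over 20 probe numbers these were 31 (67.4%, against 61.1%), -0.18 and -0.041, with 20 positive calls (32.3%, against 35.7%). The subunit difference was -0.16 with the median of a gene's probes and -0.16 with the probe of the smallest SD. Leaving out each array in turn gave 8 to 23 members with a probe apart (17.4% to 50%, against 32% to 57.3% of all such genes). The cause was not tested.

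Reversed values were, with the running median over 5 probe numbers, -0.17 for Rps15a, 0.019 for Rps2, 0.12 for Rpl4, -0.27 for Rps4l and -0.040 for Sbds. Over 20 they were 0.057 for Rps14, 0.25 for Rpl4 and -0.16 for Rps4l. With the probe of the smallest SD they were -0.012 for Rps21, 0.10 for Rps6, 0.26 for Rpl19, 0.52 for Rpl13 and 0.31 for Rps24. Without spot intensities, how far a probe's signal stood above background is unknown.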
